A study of Homo sapiens with 2 samples.

Results

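The genes described here are 10 of the 58698 genes of the deposited table, taken by symbol: the metallothioneins MT2A, MT1E, MT1X, MT1A, MT1G, MT1F and MT1M, the metallothionein pseudogene MT1L, and the zinc regulators MTF1 and SLC30A1. They were chosen by symbol with their FPKM values in these same 2 libraries known, so the values are given as a description. RNA came from MIA PaCa-2, an established line of human pancreatic cancer cells. One culture carried a guide against TPST2, a Golgi enzyme that adds sulfate to tyrosines of secreted and membrane proteins, and its genotype is labelled a TPST2 knockdown. The other carried a guide against GFP, a jellyfish protein that human cells lack, and its genotype is labelled WT. The sources used here do not say how the guides acted or whether each culture was a clone or a pool. There was 1 library of each, so nothing below was tested, no difference has a replicate check, and the guide cannot be told apart from the culture.

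Metallothioneins are small cysteine-rich proteins that bind zinc, copper and cadmium in the cytoplasm, and their genes lie side by side in a cluster on the long arm of chromosome 16. They are switched on by zinc and other metals through the transcription factor MTF1, which binds metal response elements in their promoters, and also by glucocorticoids, inflammatory cytokines and oxidative stress. SLC30A1, a zinc exporter of the plasma membrane, is another MTF1 target, so that metallothionein and SLC30A1 RNA are often read together as a measure of available zinc.

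Levels are FPKM, fragments per kb of transcript after scaling for sequencing depth. From the smallest steps between low values, 1 FPKM stood for 48.0 fragments per kb of transcript in the sgTPST2 library and 42.2 in the sgGFP library. The targeted gene TPST2 was at 1.92 FPKM in sgTPST2 and 8.46 FPKM in sgGFP. Among markers of the cell type, vimentin (VIM) was at 3118 FPKM in sgTPST2 and 2661 in sgGFP. The simple-epithelial keratin KRT18 was at 85.3 and 583 FPKM in the same order, KRT8 at 41.6 and 510, and KRT19 at 12.8 and 189. The leukocyte marker PTPRC was listed at 0 in sgTPST2 and was at 0.102 FPKM in sgGFP. The adhesion molecule EPCAM was listed at 0 in both libraries, as were the acinar markers PRSS1, CPA1 and CELA3A, the islet markers INS and GCG, the endothelial marker PECAM1 and the hepatocyte marker ALB. The part of the keratin difference in the results below was not tested.

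The members of the family resemble each other closely, which bears on how their reads can be assigned. The start of the coding sequence is shown for 6 of the 7 metallothionein genes among the 10, because it is where the copies can be compared base by base. Each line holds the 90 coding bases from the start codon, 5′ to 3′, from GENCODE release 29 transcripts, and capitals mark bases that differ from MT1E at the same position.
MT1E: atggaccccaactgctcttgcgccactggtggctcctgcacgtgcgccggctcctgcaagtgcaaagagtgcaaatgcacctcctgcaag
MT2A: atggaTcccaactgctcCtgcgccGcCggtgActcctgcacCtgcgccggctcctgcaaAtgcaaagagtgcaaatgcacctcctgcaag
MT1X: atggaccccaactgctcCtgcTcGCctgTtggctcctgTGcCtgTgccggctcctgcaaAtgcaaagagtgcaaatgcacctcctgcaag
MT1G: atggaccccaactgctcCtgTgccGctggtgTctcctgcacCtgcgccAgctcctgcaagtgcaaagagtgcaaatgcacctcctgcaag
MT1F: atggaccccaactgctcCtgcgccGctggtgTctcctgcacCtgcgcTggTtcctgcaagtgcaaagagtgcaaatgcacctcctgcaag
MT1M: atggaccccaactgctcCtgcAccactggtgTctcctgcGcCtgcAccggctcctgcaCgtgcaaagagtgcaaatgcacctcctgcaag
All 7 coding sequences are 186 bases long and hold 20 cysteine codons, 9 of them in the stretch shown. MT1G and MT1F differ from MT1E at 6 of the 90 bases, MT2A and MT1M at 7 and MT1X at 10. Over the whole coding sequence, identity between pairs ran from 88.7% to 95.2%, with a median of 91.9% over 21 pairs, and the closest pair was MT1G with MT2A. Whole transcripts were easier to tell apart. Of all stretches of 50 bases in the annotated transcripts of MT1G, 83.5% occur in no other gene's transcript, against 92.9% for MT1E, 97.0% for MT2A, 81.7% for MT1X, 94.2% for MT1A, 98.8% for MT1F, 90.1% for MT1M and 95.6% for MT1L. The low share for MT1X comes mostly from genes outside the family. Of its stretches, 18.3% occur in another gene's transcript, but 3.64% in that of another metallothionein. Read length and the treatment of reads that match several genes are not known here, and the values of these genes are uncertain to the extent of the shared stretches.

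Promoter windows were searched for the letters of the metal response element, through which MTF1 acts. RefSeq promoter windows (GRCh38.p14) matched 4 of the 10 genes: MT2A, MT1X, SLC30A1 and MTF1. Those of MT2A and MT1X, which were well expressed, are set beside that of MT1H, a metallothionein of the same cluster that was listed at 0 in both libraries. Each line holds the 250 bases before the RefSeq start on the plus strand, 5′ to 3′, and capitals mark the core of the metal response element, written here as TGCACNC or TGCGCNC and searched on both strands.
MT2A, chr16:56608334-56608583: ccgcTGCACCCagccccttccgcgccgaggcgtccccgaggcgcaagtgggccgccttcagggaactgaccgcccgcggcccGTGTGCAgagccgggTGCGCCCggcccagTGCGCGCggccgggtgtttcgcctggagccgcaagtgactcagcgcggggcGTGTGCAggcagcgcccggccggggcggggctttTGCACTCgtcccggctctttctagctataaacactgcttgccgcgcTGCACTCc
MT1X, chr16:56682220-56682469: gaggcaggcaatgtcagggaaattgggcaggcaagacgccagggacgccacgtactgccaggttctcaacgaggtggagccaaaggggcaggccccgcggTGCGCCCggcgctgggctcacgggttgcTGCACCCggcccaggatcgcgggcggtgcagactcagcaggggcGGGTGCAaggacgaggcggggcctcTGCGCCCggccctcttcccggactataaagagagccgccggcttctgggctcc
MT1H, chr16:56669564-56669813: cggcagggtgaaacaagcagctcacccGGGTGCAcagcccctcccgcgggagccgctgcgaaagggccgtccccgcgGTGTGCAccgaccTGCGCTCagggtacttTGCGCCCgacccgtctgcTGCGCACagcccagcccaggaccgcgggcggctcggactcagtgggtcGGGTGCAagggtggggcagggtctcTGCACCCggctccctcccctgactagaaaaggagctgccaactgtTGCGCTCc
MT2A has 7 cores, MT1X 4 and MT1H 8, and none of these overlaps another. Of 35116 promoter windows of the same length, 24.8% hold at least 1 core, 0.370% hold at least as many as MT1X, 0.0313% at least as many as MT2A and 0.0171% at least as many as MT1H. These windows are rich in G and C (73.2% in MT2A, 70.0% in MT1X and 70.4% in MT1H), and a match is a run of letters and not a measured binding site. The window of SLC30A1 (chr1:211579162-211579411) has 1 core and that of MTF1 has 0. The window of SLC30A1 does not adjoin the gene as annotated in GENCODE, which reaches to position 211578742. Its count may thus not be that of the promoter in use. The window of MT2A lies inside the gene as annotated in GENCODE (56608199 to 56609497), and those of MT1X and MTF1 overlap their annotated genes in part. Windows were also matched for MT4 and MT1B, which are not among the 10 genes, with 3 cores each. MT4 was listed at 0 in both libraries, and MT1B at 0 FPKM in sgTPST2 and 0.123 in sgGFP. MT1H, with 8 cores, was listed at 0, and MT1X, with 4, was among the highest genes of the family. How the number of cores goes with the level was not tested in these few windows.

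Metallothionein RNA was abundant in both cultures and its bulk differed little between them. MT1E, MT2A, MT1X and MT1A together summed to 1722 FPKM in sgTPST2 and 1732 FPKM in sgGFP, a ratio of 0.994. Over all 21 metallothionein genes and pseudogenes of the table the sums were 1758 and 1803 FPKM in the same order, a ratio of 0.975. The other 17 summed to 36.3 FPKM in sgTPST2 and 70.9 FPKM in sgGFP, and MT1L and MT1G had the widest gaps among them. Of the 17, 10 were listed at 0 in both libraries, and MT1P3 went the other way (3.74 FPKM in sgTPST2, listed at 0 in sgGFP). The split was made with the values known and is not one of level, since in sgGFP MT1L was at 54.7 FPKM and MT1A at 50.7. Nothing is therefore read from the contrast of these sums. In RNA from whole cultures, fewer cells that express a gene and less RNA per cell cannot be told apart.

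MT1E (ENSG00000169715.14, chr16:56625475-56627112, plus strand, GRCh38), the most abundant member, stood at 926 FPKM in sgTPST2 and 937 FPKM in sgGFP. It made up 52.6% and 52.0% of the metallothionein sum in the same order. Its rank among 19940 protein-coding genes was 99 in sgTPST2 and 96 in sgGFP, so it was among the most abundant messages in both. The ratio was 0.988, with an exact 95% interval of 0.953 to 1.02. This and the later intervals cover counting error only, and take the number of fragments from the shortest annotated transcript of at least 250 bases, which gives the fewest and so the widest interval.

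MT2A (ENSG00000125148.6, chr16:56608199-56609497), a broadly expressed isoform, stood at 479 FPKM in sgTPST2 and 486 FPKM in sgGFP, with ranks of 184 and 174. Its ratio was 0.987 (0.949 to 1.03). MT1X (ENSG00000187193.8, chr16:56682424-56684196) stood at 264 FPKM in sgTPST2 and 259 FPKM in sgGFP, a ratio of 1.02 (0.969 to 1.07). MT1A (ENSG00000205362.11, chr16:56638666-56640087) stood at 53.5 FPKM in sgTPST2 and 50.7 FPKM in sgGFP, a ratio of 1.06 (0.931 to 1.20). The counting intervals of all these ratios, that of MT1E included, include 1. They also place any difference in MT1E, MT2A and MT1X between these libraries between ratios of 0.949 and 1.07, so far as counting error goes.

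Among the protein-coding members, MT1G and MT1F are listed at 0 in sgTPST2 and above 0 in sgGFP. MT1G (ENSG00000125144.13) lies at chr16:56666731-56668065 on the minus strand, the opposite strand to its neighbours in the cluster. It is listed at 0 FPKM in sgTPST2 and stood at 13.9 FPKM in sgGFP. The sgGFP value stands for 68.9 fragments if they came from its shortest annotated transcript (305 bases) and for 258 if they came from its longest (628 bases), with a counting interval of 10.8 to 17.6 FPKM on the shortest transcript.

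The same level in sgTPST2 would have meant 81.0 fragments on the shortest transcript. In the authors' deposited table MT1G has q = 0.0126, below the threshold of 0.05. That test compares 2 libraries and not the conditions. Of the 18574 genes it covered, 0.517% have such a q. Of all 13420 genes at 1 FPKM or more in the higher library, 0.581% are listed at 0 in sgTPST2 and 0.574% in sgGFP. A value of 0 in this table can be a failed estimate, since the ribosomal protein gene RPS29, which every cell uses, is also listed at 0 in sgTPST2 and at 2833 FPKM in sgGFP. RPS29 carries the status HIDATA, for a locus too deep to estimate, whereas MT1G carries the status OK.

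For genes as short as MT1G the same gap was counted, as a description: MT1G was chosen with its values known and is past the level only through sgGFP. Of 617 protein-coding genes whose longest transcript is at most 700 bases, 91 reached 5 FPKM in the higher library. Of these, 1 is listed at 0 in the other library, and it is MT1G. Among longer protein-coding genes, 3 of 8709 were at 5 FPKM or more in sgGFP and listed at 0 in sgTPST2: SPARC (a matrix protein), RPS29 and LRR1, the last also with the status HIDATA. These genes were named after their values were seen. No protein-coding gene was at 5 FPKM or more in sgTPST2 and listed at 0 in sgGFP (0 of 617 short and 0 of 19323 longer genes).

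**Figure D1:**
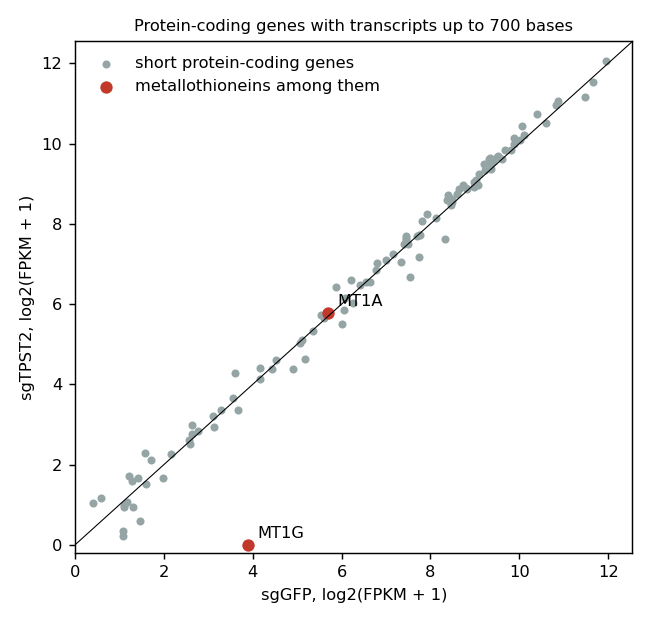
Levels of protein-coding genes with transcripts up to 700 bases and a higher value of at least 1 FPKM, with sgTPST2 on the vertical and sgGFP on the horizontal axis, both as log2(FPKM + 1); each point is a gene and the line marks equal values. MT1A (53.5 FPKM in sgTPST2, 50.7 in sgGFP) lies on the line, and MT1G (0 and 13.9 FPKM) lies at the bottom.

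MT1F (ENSG00000198417.6, chr16:56657694-56660698) lies next to MT1G and went the same way at a far lower level. It is listed at 0 FPKM in sgTPST2 and stood at 0.873 FPKM in sgGFP, which stands for between 4.77 and 51.1 fragments, depending on the transcript. In the authors' deposited table it has q = 0.0484, just under the threshold. MT1B, next to MT1F on the other side and not among the 10 genes, is listed at 0 in sgTPST2 and was at 0.123 FPKM in sgGFP, which is 1 fragment on its longest transcript. Each of the adjacent genes MT1B, MT1F and MT1G was thus listed at 0 in sgTPST2 and above 0 in sgGFP, a stretch noticed after the values were seen, and for MT1B the gap is a lone fragment.

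MT1M (ENSG00000205364.3, chr16:56632233-56633986) was near 0 in both. It stood at 0.0646 FPKM in sgTPST2 and 0.0738 FPKM in sgGFP, which is 2 fragments in each library on its longest transcript. With so few fragments the interval of the ratio ran from 0.0634 to 12.1, so a difference in MT1M was not detectable at this depth.

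MT1L (ENSG00000260549.1, chr16:56617476-56618818), annotated as a transcribed pseudogene, stood at 31.5 FPKM in sgTPST2 and 54.7 FPKM in sgGFP. These values rest on 344 and 516 fragments in the same order. The ratio was 0.576 (0.502 to 0.662), and the counting intervals of the levels, 28.26 to 35.02 FPKM in sgTPST2 and 50.03 to 59.57 FPKM in sgGFP, do not overlap. In the authors' deposited table MT1L has p = 0.139 and q = 0.9997, so it did not pass there. The pseudogene lies between MT2A and MT1E, both of which had ratios near 1. In sgTPST2 MT1A (interval 49.1 to 58.2 FPKM) stood above MT1L. In sgGFP the intervals of MT1A (46.0 to 55.6 FPKM) and MT1L overlapped, so their order there is not resolved. The top of the order was shared, with MT1E above MT2A, MT2A above MT1X and MT1X above both of these genes. Lower down the order cannot be compared. MT1G and MT1F stood above MT1M in sgGFP, but in sgTPST2 they are listed at 0 and MT1M rests on 2 fragments.

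**Figure D2:**
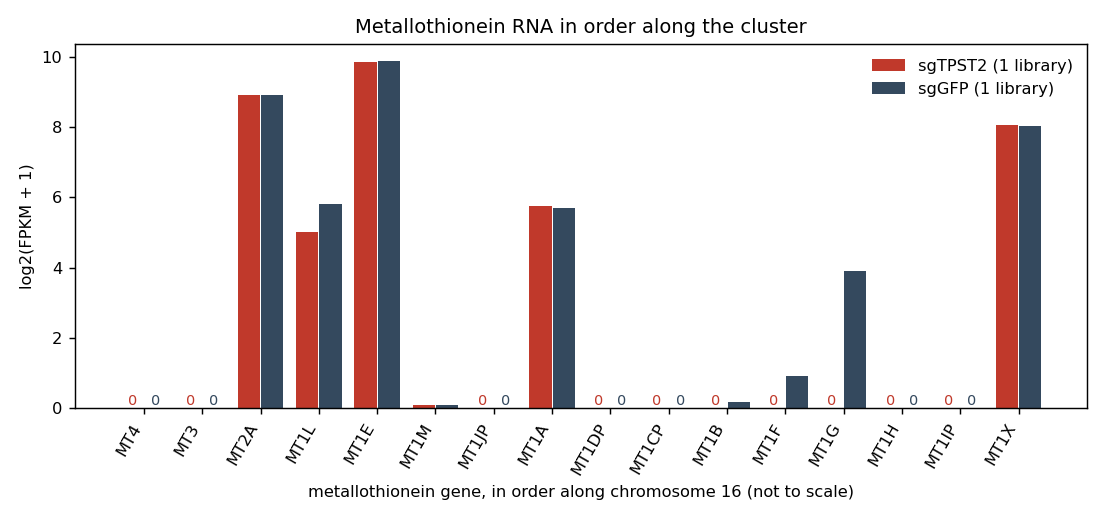
Levels of the metallothionein genes and pseudogenes of the chromosome 16 cluster as log2(FPKM + 1), in their order along the chromosome, for the sgTPST2 and the sgGFP library; a 0 marks a gene listed at 0. MT2A, MT1E, MT1A and MT1X have bars of like height in both, MT1L is lower in sgTPST2, and MT1B, MT1F and MT1G have a bar in sgGFP only.

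The other metallothioneins were listed at 0 or have very short annotated transcripts. Of the 21 genes and pseudogenes, 10 were listed at 0 in both libraries: MT3, the brain form, MT4, the form of stratified epithelium, MT1H, MT1HL1 and the pseudogenes MT1CP, MT1DP, MT1IP, MT1JP, MT1XP1 and MT1P1. A listed 0 may be a failed estimate, and the transcripts of MT1CP (174 bases), MT1P1 (183 bases), MT1XP1 (186 bases) and MT1DP (at most 191 bases) are too short for it to be read as a lack of fragments. The pseudogene MT2P1 on chromosome 4 was at 1.04 FPKM in sgTPST2 and 1.31 FPKM in sgGFP. The pseudogene MT1P3 on chromosome 20 went the other way from MT1G, at 3.74 FPKM in sgTPST2 and listed at 0 in sgGFP. Both are annotated as a transcript of 183 and 177 bases, about the length that is subtracted from a transcript to convert FPKM to fragments (183.5 bases in sgTPST2 and 187.5 in sgGFP), so their values cannot be read as fragments. Of the 50-base stretches of MT1P3, 54.7% occur in other genes, among them MT1E and MT1JP.

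Counted on log2((sgTPST2 + 1)/(sgGFP + 1)), the scale of the authors' own fold change, 8 of the 10 genes had a higher value of at least 1 FPKM. MT1F and MT1M did not, and MT1G did only through sgGFP. MT1G and MT1L were at least 1.5-fold lower in sgTPST2, and 0 were 1.5-fold higher. Among all 13420 genes past the same level, 6.94% were 1.5-fold lower and 4.41% were 1.5-fold higher. Among the 11048 protein-coding genes past it, 5.91% were 1.5-fold lower, 3.16% higher and 9.07% apart either way. The lists below other than the metallothioneins hold protein-coding genes, so these smaller shares are the closer background for them. Since the 10 genes were chosen with their values known, nothing is read from their count.

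Genes on both sides of the cluster were set beside it. Of 8 neighbours on both sides, 6 reached 1 FPKM, and 0 of these were 1.5-fold apart, beside 9.07% of protein-coding genes past that level. Their median log2 difference was -0.14, beside 0.00 over all genes. BBS2, of the ciliary BBSome complex, was at 21.6 FPKM in sgTPST2 and 27.3 in sgGFP, a ratio of 0.790 (0.611 to 1.02). OGFOD1, a hydroxylase of a ribosomal protein, was at 39.6 FPKM in sgTPST2 and 45.0 in sgGFP. The nuclear pore gene NUP93 was at 84.9 FPKM in sgTPST2 and 93.4 in sgGFP. Over 533 protein-coding genes of chromosome 16 past 1 FPKM the median was -0.02, and over the 17 within 1 Mb of the cluster, metallothioneins left out, it was 0.03, with 1 of the 17 over 2-fold lower (log2 difference -1.14). The long non-coding RNA AC026461.3, between MT2A and MT1L on the minus strand and named after its values were seen, was at 2.48 FPKM in sgTPST2 and 0.831 FPKM in sgGFP, the opposite direction to MT1L.

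**Figure D3:**
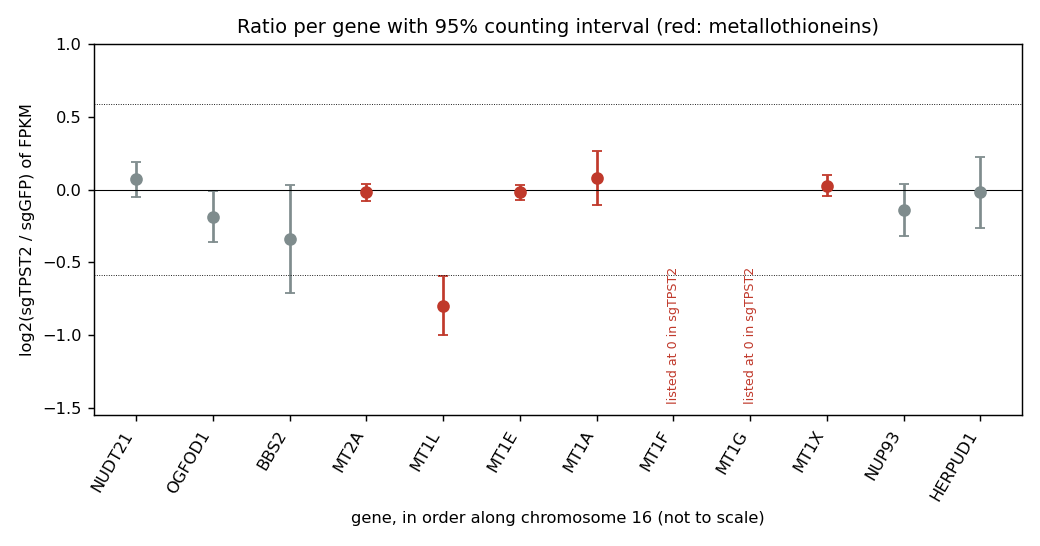
Ratio of FPKM, sgTPST2 over sgGFP, on a log2 scale, for 7 metallothionein genes (red) and 5 neighbours (grey) in their order along chromosome 16; bars are 95% counting intervals and dotted lines mark 1.5-fold. MT2A, MT1E, MT1A and MT1X have intervals that include 0, MT1L (ratio 0.576) lies below, and MT1F and MT1G, listed at 0 in sgTPST2, have no ratio.

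The zinc regulators among the 10 genes showed no gap like that of MT1G. SLC30A1 (ENSG00000170385.9, chr1:211571568-211578742, minus strand) was at 23.8 FPKM in sgTPST2 and 24.3 FPKM in sgGFP, resting on 6053 and 5428 fragments, with a ratio of 0.981 (0.945 to 1.02). MTF1 (ENSG00000188786.9, chr1:37809567-37859620, minus strand) was at 4.53 FPKM in sgTPST2 and 3.41 FPKM in sgGFP, a ratio of 1.33. Its interval depends on the transcript that the reads are taken to come from. It ran from 0.850 to 2.18 on the shortest (413 bases) and from 1.23 to 1.43 on the longest (7972 bases). In the authors' deposited table MTF1 has q = 0.9997, as do SLC30A1, MT1E, MT2A, MT1X and MT1A.

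Factors that act with MTF1 or at metallothionein promoters were all past 1 FPKM. Of these 7, 0 were 1.5-fold apart, beside 9.07% of protein-coding genes past that level. Their median log2 difference was 0.06, and -0.10 over those at 5 FPKM or more. USF1, a basic helix-loop-helix factor that binds metallothionein promoters in mouse, was at 61.6 FPKM in sgTPST2 and 45.1 in sgGFP, a ratio of 1.37 (1.23 to 1.51). Its partner USF2 was at 49.4 FPKM in sgTPST2 and 53.3 in sgGFP. The acetyltransferase EP300, a coactivator that MTF1 recruits, was at 5.49 FPKM in sgTPST2 and 7.11 in sgGFP. MTF2, a Polycomb protein first named for binding the metal response element, was at 27.6 and 29.6 FPKM in the same order.

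Zinc transporters mostly differed by less than 1.5-fold, as did protein-coding genes in general, of which 9.07% were 1.5-fold apart. The SLC30 family moves zinc out of the cytoplasm, across the plasma membrane or into vesicles and the Golgi, and the SLC39 family moves it in. Of 24 genes in both families 17 reached 1 FPKM. Of these, 1 was 1.5-fold higher and 0 were 1.5-fold lower, beside 3.16% and 5.91% of protein-coding genes past that level. Their median log2 difference was -0.08, with 11 below 0 and 6 above.

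SLC39A8, an importer of zinc, manganese and cadmium, was the 1 gene past 1.5-fold. It stood at 37.0 FPKM in sgTPST2 and 23.7 FPKM in sgGFP, a ratio of 1.56 (1.14 to 2.14). In the authors' deposited table it has q = 0.9997. It is known as a target of NF-kappaB. The other importers went both ways. SLC39A1, an importer of the plasma membrane, was at 56.5 FPKM in sgTPST2 and 48.8 in sgGFP, and SLC39A14, which also carries iron and manganese, was at 66.0 and 71.5 FPKM in the same order. SLC39A10, a partner of SLC39A6 that MTF1 represses in mouse, was at 50.7 FPKM in sgTPST2 and 58.9 in sgGFP.

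SLC39A10 lies on chromosome 2 between 190 and 230 Mb, where 128 protein-coding genes past 1 FPKM had a median log2 difference of -0.35. This region was chosen with earlier results of these data known, and its part in the lower value of SLC39A10 was not tested. SLC39A6 itself was at 27.9 FPKM in sgTPST2 and 29.8 in sgGFP. SLC39A3 stood at 38.2 FPKM in sgTPST2 and 40.3 in sgGFP, and SLC39A9 at 34.1 in sgTPST2 and 33.3 in sgGFP. SLC39A7, a zinc channel of the endoplasmic reticulum and Golgi, was at 13.6 FPKM in sgTPST2 and 15.8 in sgGFP. SLC39A13 was at 9.73 FPKM in sgTPST2 and 8.81 in sgGFP, and SLC39A11 at 6.31 in sgTPST2 and 6.56 in sgGFP.

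Among exporters, SLC30A5, which with SLC30A6 loads zinc into the secretory pathway, was at 55.8 FPKM in sgTPST2 and 63.2 in sgGFP. SLC30A6 was at 15.6 FPKM in sgTPST2 and 16.7 in sgGFP, and SLC30A7, the other Golgi exporter, at 17.1 and 16.8 FPKM in the same order. SLC30A9, a mitochondrial zinc exporter, had the lowest difference of the family. It stood at 31.9 FPKM in sgTPST2 and 41.8 FPKM in sgGFP, a ratio of 0.763 (0.700 to 0.834), which did not reach 1.5-fold.

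**Figure D4:**
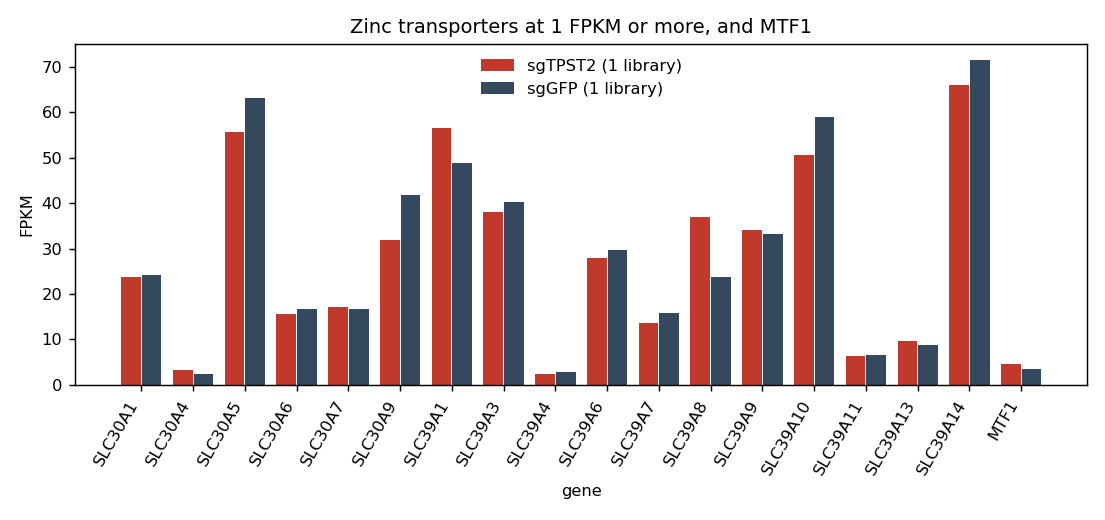
FPKM of the 17 zinc transporters of the SLC30 and SLC39 families at 1 FPKM or more in the higher library, and of MTF1, in the sgTPST2 and the sgGFP library. Most pairs of bars are of like height, with SLC39A8 the widest relative gap among the transporters at 37.0 FPKM in sgTPST2 and 23.7 in sgGFP.

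Genes of the other signals that induce metallothioneins were set beside them. Of 12 metal and oxidative stress genes, 10 reached 1 FPKM. Of these, 3 were 1.5-fold higher and 0 lower, beside 3.16% and 5.91% of protein-coding genes past that level. Their median was 0.30, with 8 above 0 and 2 below. The 2 below were GCLM, at 152.4 FPKM in sgTPST2 and 180.3 in sgGFP, and DNAJB1, at 96.4 and 96.6. SLC7A11, the cystine transporter that feeds glutathione synthesis, was at 25.3 FPKM in sgTPST2 and 6.79 in sgGFP. The quinone reductase gene NQO1 was at 2030 and 1268 FPKM in the same order, and the thioredoxin reductase gene TXNRD1 at 460.8 and 355.7. HMOX1, the heme oxygenase that heavy metals induce, was at 13.7 FPKM in sgTPST2 and 8.47 in sgGFP, a ratio of 1.61 (1.30 to 1.996). The heat shock genes HSPA1A and HSPA1B, which metals also induce and which are nearly identical copies, were listed at or near 0 in both libraries, with 0 and 0.00892 FPKM in sgTPST2 and 0 in both genes in sgGFP. GCLM, DNAJB1, HSPA1A and HSPA1B were named after their values were seen.

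Of 10 glucocorticoid response genes, 9 reached 1 FPKM (median -0.14). Of these, 1 was 1.5-fold higher and 1 was 1.5-fold lower, beside 3.16% and 5.91% of protein-coding genes past that level. The secreted protein gene CRISPLD2 was at 5.94 FPKM in sgTPST2 and 12.6 in sgGFP, and the kinase SGK1 at 305 and 209.6 FPKM in the same order. The receptor co-chaperone FKBP5 was at 5.19 FPKM in sgTPST2 and 7.52 in sgGFP, and the phosphatase DUSP1 at 7.66 and 9.60. The higher gene was TSC22D3, the leucine zipper protein GILZ, at 2.68 FPKM in sgTPST2 and 0.922 in sgGFP, named after its values were seen. Of 9 genes of the IL-6 and STAT3 acute-phase response, 7 reached 1 FPKM. Of these, 1 was 1.5-fold higher and 2 were lower, beside the same shares of protein-coding genes. Their median was 0.14, and -0.12 over those at 5 FPKM or more. The 2 lower genes were SERPINA3, at 1.31 FPKM in sgTPST2 and 110.5 in sgGFP, and the cytokine LIF, at 9.44 and 20.8. The receptor subunit OSMR was at 17.3 FPKM in sgTPST2 and 10.1 in sgGFP, and the shared receptor subunit IL6ST at 58.1 and 43.6. MT2A, which glucocorticoids and IL-6 induce in human cells, had a ratio of 0.987 beside these.

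**Figure D5:**
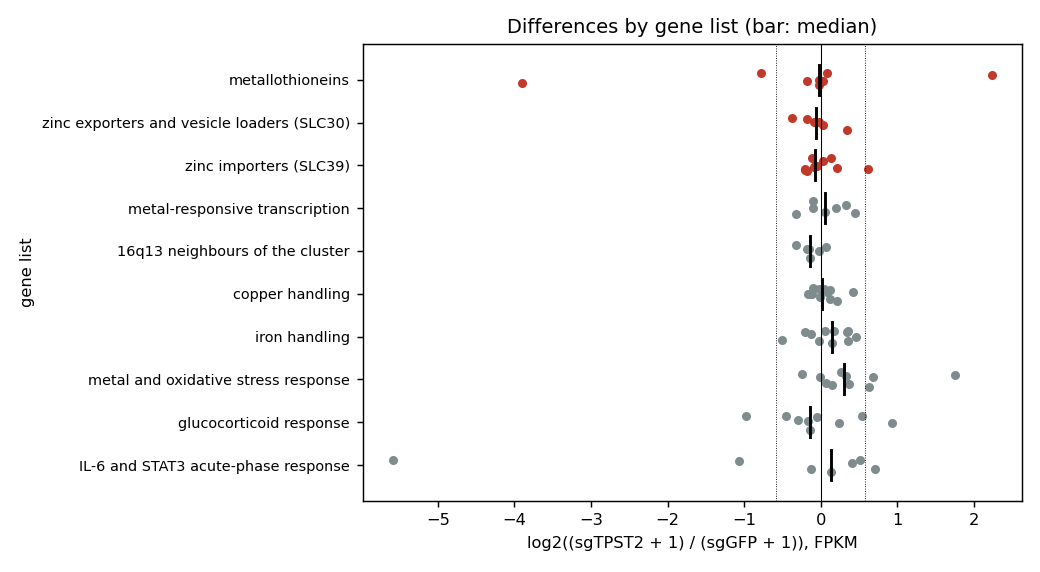
Difference log2((sgTPST2 + 1)/(sgGFP + 1)) of FPKM for each member of 10 gene lists whose higher value was at least 1 FPKM; black bars are medians and dotted lines mark 1.5-fold. The zinc exporters (median -0.06) and importers (median -0.08) lie close to 0, and the metallothioneins (median -0.02) do too except MT1G, MT1L and the pseudogene MT1P3.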

How the data were processed

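Total RNA of 2 MIA PaCa-2 cultures was sequenced, 1 per guide; RNA was column-purified and a stranded kit for total RNA was used, per the labels' protocols. STAR, Cuffdiff and the build hg38 are named in the submitters' processing notes; their versions, the annotation and the strand setting are not given in these sources. Reads of genes that overlap on opposite strands may therefore be mixed. The deposited table, per the file headers, holds 1 value per gene and culture, read here as FPKM although the header names no unit. It also holds the authors' p-value and q-value, a deposited log2 fold change, which equals log2((sgTPST2 + 1)/(sgGFP + 1)), and a deposited test score that was not used. All 58698 identifiers matched GENCODE release 29, which gave coordinates, gene types and transcript lengths.

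The 10 genes and the 10 lists were chosen with earlier results of these data known. All 10 genes and all metallothioneins are named, as are the SLC30 and SLC39 genes at 5 FPKM or more; other lists give up to 4 genes at 5 FPKM or more with the largest absolute difference. A gene that this rule names and a coding sequence are not reported here. Of entries with 1 symbol, that with the highest mean was taken. Counts of genes cover those that reached 1 FPKM in either library, with a pseudocount of 1.

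Fragments were recovered from low values of genes with 1 transcript, as FPKM times transcript length less an offset (183.5 bases in sgTPST2, 187.5 in sgGFP). Of 4119 low values in sgTPST2 and 4263 in sgGFP, 94.3% and 93.8% came out whole to within 0.1; step and offset were fitted on these values. Intervals at 95% are exact (Poisson for levels, Clopper-Pearson for ratios) and cover counting error only. Steps were tested on simulated data. No protein sequences were used here. Alternatives were the pseudocount, the filter and the scaling. Python 3.11.15, scipy 1.17.1, pandas 2.3.3 and Biopython 1.88 were used.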

Additional observations from a re-analysis of the deposited data

How the results depend on the processing

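No paired analysis was possible because there was 1 library for each guide, and none could be left out. With a pseudocount of 0.1, with both libraries scaled to the same upper quartile of values above 0, or with both scaled to the same sum, MT1G and MT1L were the members counted as 1.5-fold lower (2 genes in each setting). The summed metallothionein level (log2 ratio -0.04) was -0.00103 with the same upper quartile, a move past its counting interval that comes from the scaling factor of 1.02 itself. The median of all genes moved to 0.03 under that scaling. Of short protein-coding genes, 9 of 108 past 1 FPKM were 1.5-fold apart; 4 of 91 were with a filter at 5 FPKM, and 36 of 328 were with transcripts up to 1000 bases; the cause was not tested. The medians of the metal-responsive transcription, copper and IL-6 lists changed sign with the 5 FPKM filter (-0.10, -0.01 and -0.12, against 0.06, 0.02 and 0.14). With the same upper quartile, small differences changed sign in MT2A (0.016 against -0.019), MT1E (0.018 against -0.018) and SLC30A1 (0.007 against -0.027). The metallothionein median did so too (0.017 against -0.018). With TGCGCNC alone MT2A has 2 cores in place of 7. The differences of MT1G and MT1F, listed at 0 in sgTPST2, depend on the pseudocount: -3.90 and -0.91 with 1, -7.13 and -3.28 with 0.1. No difference or median past 1.5-fold changed direction under these alternatives. Depth limits MT1M and MT1B most, with 2 and 1 fragments in sgGFP.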

Other observations

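Copper and iron genes, whose proteins share importers or binding partners with zinc, were examined as lists of 12 each. Of the 12 copper genes, all past 1 FPKM, 0 were 1.5-fold apart, beside 9.07% of protein-coding genes past that level. Their median log2 difference was 0.02, and -0.01 over those at 5 FPKM or more. The copper chaperone ATOX1 was at 110.9 FPKM in sgTPST2 and 82.5 in sgGFP, a ratio of 1.34 with a counting interval of 1.23 to 1.47. The copper importer SLC31A1 was at 15.7 FPKM in sgTPST2 and 17.6 in sgGFP, the copper-zinc superoxide dismutase SOD1 at 447 and 410.3 FPKM in the same order, and COX11 at 46.8 and 52.1.

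Of the 12 iron genes, 11 reached 1 FPKM (median 0.15) and 0 were 1.5-fold apart, beside the same 9.07% of protein-coding genes. The ferritin light chain FTL was at 5955 FPKM in sgTPST2 and 4669 in sgGFP, a ratio of 1.28, and the heavy chain FTH1, named after its values were seen, was at 1242 and 974.7 FPKM with a ratio of 1.27. NCOA4, the receptor for ferritin breakdown, was at 84.3 FPKM in sgTPST2 and 65.3 in sgGFP, and FBXL5, an iron sensor, at 32.6 and 23.5 FPKM in the same order. The ferrireductase STEAP3 was at 7.31 FPKM in sgTPST2 and 10.8 in sgGFP, a ratio of 0.674 (0.605 to 0.751). In the authors' deposited table all of the copper and iron genes named here have q = 0.9997.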
